A study of Mus musculus with 357 samples.

Results

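The genes described here are 5 of the 96 measured by quantitative PCR in single hematopoietic stem cells (HSCs) of mouse bone marrow: the C/EBP transcription factors Cebpa, Cebpb and Cebpe, and the myeloid cytokine receptors Csf1r and Csf2rb. They were chosen by name, as members of the granulocyte and monocyte programme, and all 5 assays gave products. The cells carried the genotype Col1a1-tetO-H2B-mCherry, in which a fluorescent histone is put on the chromatin and is then diluted as a cell divides, and had the sorted phenotype Lin-Sca1+c-kit+CD48-CD150+. They were taken 2 weeks after labelling (90 cells on plate 1 and 93 on plate 2) or 5 weeks after it (91 on plate 1 and 83 on plate 2), 357 cells in all. Genotype and phenotype were the same at both times. The labels name no transactivator, age or number of animals.

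C/EBP proteins are basic leucine zipper factors that bind DNA as pairs. C/EBPα, encoded by Cebpa, is needed for the step from multipotent cells to granulocyte and monocyte progenitors. C/EBPβ (Cebpb) acts in monocytes and in the emergency production of granulocytes, and C/EBPε (Cebpe) in the late maturation of granulocytes. Csf1r encodes the receptor for M-CSF, the growth factor of monocytes and macrophages, and is a known target of PU.1 and C/EBPα. Csf2rb encodes the signalling chain that the receptors for GM-CSF, IL-3 and IL-5 share. A neighbouring gene, Csf2rb2, encodes a close copy of that chain in mice, and since no primer sequence was at hand, the part of each copy in the Csf2rb product was not tested.

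The measurement is the threshold cycle (Ct), the cycle at which a product becomes visible. It falls by about 1 for each doubling of template, and a product at Ct 25 or below was counted as detected. Products at Ct 18 or below are called early here and those after it late. The mean Ct of the 14 reference assays, each seen on every plate in at least 95% of its cells, was 13.45 ± 0.53 (SD over cells) at 2 weeks and 12.96 ± 0.65 at 5 weeks. The median number of assays detected per cell was 54 to 55 on the 2-week plates and 58 to 59 on the 5-week plates. The sort gene Kit had a product in 98.9% of 2-week and 99.4% of 5-week cells, and Cd48 in 1.09 and 1.72%. Ly6a, the gene of Sca1, had one in 91.3 and 73%, and Slamf1, the gene of CD150, in 72.1 and 55.7%. Of 8 markers of mature granulocytes or monocytes listed for a check of the sort, 0 were on the panel, so a mature myeloid cell could not be recognised by them. Since no animal is named, each chase time counted as 1 sample, no p-value was computed, and intervals of shares are 95% Clopper-Pearson intervals, which are exact and cover only counting error. The cells of a plate were all of the same chase time, so plate and time cannot be told apart.

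Cebpa was found in most stem cells, Cebpb and Csf2rb in a minority, and Cebpe and Csf1r in few. Over all cells, Cebpa was detected in 233 of 357 (65.3%, interval 60.1 to 70.2%), Cebpb in 85 (23.8%, 19.5 to 28.6%) and Csf2rb in 72 (20.2%, 16.1 to 24.7%). Csf1r was detected in 31 (8.68%, 5.98 to 12.1%) and Cebpe in 19 (5.32%, 3.23 to 8.19%). In this order the intervals of neighbours overlap for Cebpb and Csf2rb and for Csf1r and Cebpe, and not elsewhere. The assays may differ in efficiency, so Ct levels were compared only between cells of 1 assay, and only the spread of Ct is set side by side for different genes.

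**Figure D1:**
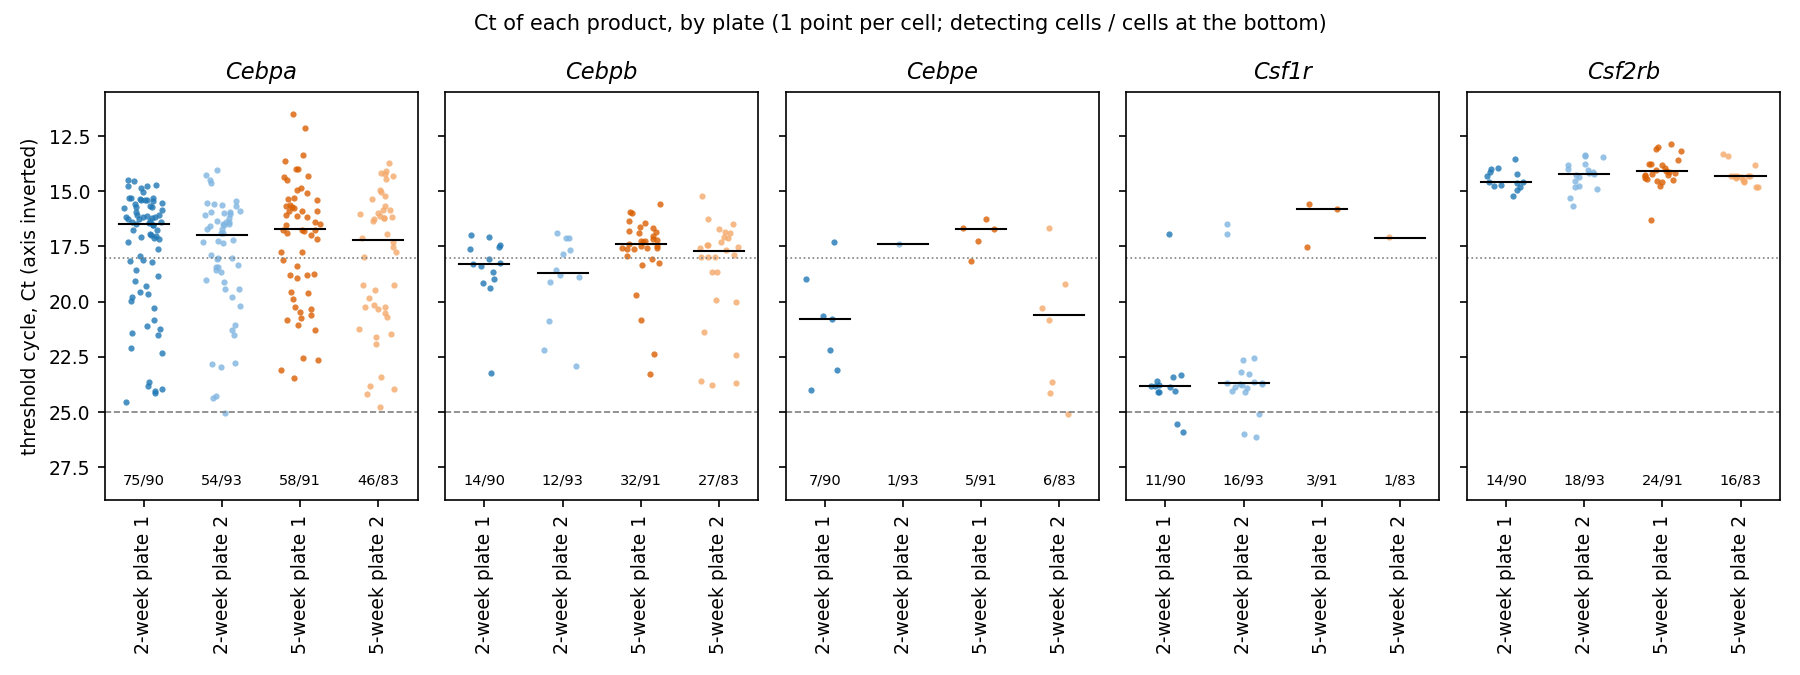
Ct of every product of the 5 genes, 1 point per cell, by plate, on an inverted axis so that more template lies higher. Black lines are medians of detected products, the dashed line is Ct 25, the dotted line is Ct 18, and the fractions give detecting cells over cells. The late Csf1r products are on the 2-week plates, and the Csf2rb products lie in a narrow band between Ct 12.9 and 16.3.

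Between 2 and 5 weeks the plates lay apart for 1 gene of the set in each direction. Cebpb had more detecting cells on both 5-week plates, where 42.7% of the 96 assays were higher by the same rule, and Csf1r in fewer, where 7.29% were lower. The plates overlapped for Cebpa, Cebpe and Csf2rb. At a limit of Ct 23 the set had 1 gene higher and 0 lower, beside 44.8 and 5.21% of all assays. At Ct 18 it had 2 higher (Cebpb and Cebpe) and 0 lower, beside 43.8 and 5.21%. The Cebpe call rested on few cells: early products were in 1 of 90 and 1 of 93 cells at 2 weeks. At 5 weeks they were in 4 of 91 and 1 of 83, so 5-week plate 2 (1.20 against 1.11 and 1.08%) passed only through its smaller number of cells. With 1 plate fewer the rule is met more easily: without 2-week plate 1 61.5% of all assays were higher and 15.6% lower, without 2-week plate 2 51 and 17.7%, without 5-week plate 1 46.9 and 13.5%, and without 5-week plate 2 55.2 and 15.6%. The set then had 1 to 2 genes higher and 1 to 3 lower. The median difference was 1.95 percentage points over the 5 genes and 2.85 over all 96 assays.

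**Figure D2:**
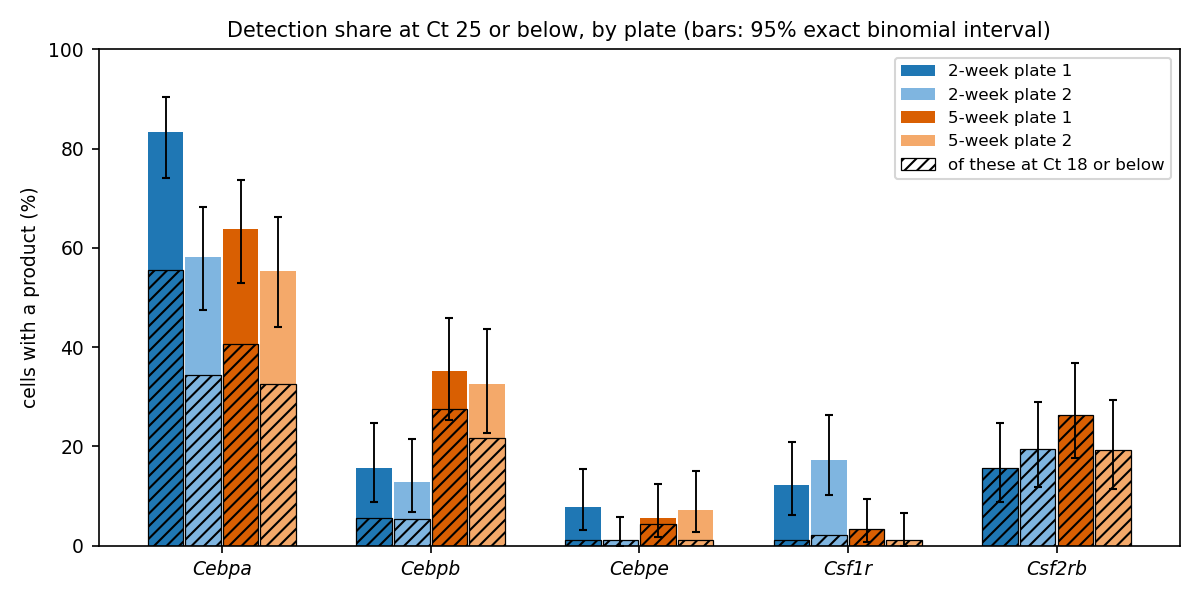
Percent of cells with a product at Ct 25 or below for each gene and plate, with exact 95% binomial intervals; the hatched part of each bar is the share with an early product (Ct 18 or below). Cebpb stood at 15.6 and 12.9% on the 2-week plates and at 35.2 and 32.5% on the 5-week plates, and the early part of Csf1r stayed between 1.11 and 3.30%.

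Among the C/EBP genes, Cebpa had the widest range of Ct, from 11.5 to 24.8, with a median of 16.8 over the 233 detecting cells. Its product was in 75 of 90 cells on 2-week plate 1 (83.3%, interval 74 to 90.4%), 54 of 93 on 2-week plate 2 (58.1%, 47.4 to 68.2%), 58 of 91 on 5-week plate 1 (63.7%, 53 to 73.6%) and 46 of 83 on 5-week plate 2 (55.4%, 44.1 to 66.3%). Only 2-week plate 1 stood apart: its interval lay above those of the other 3 plates, which overlapped each other. The gap of 25.27 points between the plates of 2 weeks was the third largest of the 96 assays, for which the median gap was 3.03 points. The difference between the times, -10.72 points (95% interval -20.35 to -0.84), was therefore smaller than the difference between plates of 1 time, and without 2-week plate 1 it was 1.71 points.

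In the cells that had Cebpa, its level was spread widely and alike on all plates. Level, in log2 units, is how many cycles the gene's product came before the mean of the reference assays in the same cell, so that later products have negative values. It was -4.22 ± 2.77 (SD, n = 75 cells) and -4.45 ± 2.64 (n = 54) on the 2-week plates and -4.53 ± 2.69 (n = 58) and -5.07 ± 3.21 (n = 46) on the 5-week plates. The level differed by -0.45 between the times and was lower on both 5-week plates, as for 43.8% of the 80 assays so measured (30% were higher), but it was 0.08 without centring on the reference assays. It was -0.76 without 5-week plate 1, -0.21 without 5-week plate 2, and -0.15 with overlapping plates among early products. Late products made up 33.3, 40.7, 36.2 and 41.3% of Cebpa products on the 4 plates, so early and late products occurred on every plate in similar proportion. Cells with and without Cebpa differed little in the amount of cDNA: on each plate the mean reference Ct was lower by 0.12 to 0.21 cycles in the cells with the product, as the values of 12.76 against 12.97 on 5-week plate 1 show.

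Cebpb was detected in more cells on both 5-week plates, with the difference in products at Ct 18 or below. It was detected in 14 of 90 cells (15.6%, interval 8.77 to 24.7%) and 12 of 93 (12.9%, 6.85 to 21.5%) on the 2-week plates, and in 32 of 91 (35.2%, 25.4 to 45.9%) and 27 of 83 (32.5%, 22.6 to 43.7%) on the 5-week plates. The plates of 1 time were within 3 points of each other, and both 5-week plates lay above both 2-week plates. Over the plates of each time, 10 cells had an early product and 16 a late one at 2 weeks, against 43 and 16 at 5 weeks. The early share was thus 5.46% (interval 2.65 to 9.82%) at 2 weeks and 24.7% (18.5 to 31.8%) at 5 weeks, a difference of 19.25 points (12.01 to 26.59). The number of cells with a late product was the same at both times. Ct 18 is not a gap in the Cebpb products, whose median Ct was 18.3 at 2 weeks and 17.5 at 5 weeks. The mean reference Ct was also lower at 5 weeks (12.96 against 13.45), and the split into early and late products was not adjusted for it.

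The difference in Cebpb detection was 19.70 points (95% interval 10.90 to 28.20). It was 19 with the reference Ct of the cell as a covariate and 16.42 with the number of other detected assays as covariate. In detecting cells the level did not separate the times. It was -5.16 ± 1.65 (SD, n = 14) and -5.47 ± 1.79 (n = 12) on the 2-week plates and -4.79 ± 1.89 (n = 32) and -5.60 ± 2.33 (n = 27) on the 5-week plates, so that the times differed by 0.14, and single pairs of plates by -0.44 to 0.69. The difference was 0.63 where Ct was not centred and 0.54 relative to Actb and Gapdh, with the plates overlapping on both scales. Cebpb was therefore found in more cells at 5 weeks, at a level that overlapped between the plates of the 2 times.

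Cebpe, the factor of late granulocyte maturation, was rare on every plate. Its Ct values on 2-week plate 1 were 17.3, 19, 20.6, 20.8, 22.2, 23.1 and 24, and its only product on 2-week plate 2 was at 17.4. On 5-week plate 1 they were 16.2, 16.7, 16.7, 17.3 and 18.1, and on 5-week plate 2 they were 16.7, 19.2, 20.3, 20.8, 23.6 and 24.1. The products of 5-week plate 1 were nearly all early and those of 2-week plate 1 and 5-week plate 2 mostly late, so plates of the same time were as unlike as plates of different times. The share was 4.37% (interval 1.91 to 8.43%) at 2 weeks and 6.32% (3.20 to 11%) at 5 weeks. The difference of 1.95 points had an interval of -2.92 to 7.06, which covers counting error only. It was smaller than the gap of 6.70 points between the 2-week plates. The difference between the times was 5.25 points without 2-week plate 1 and -1.46 without 2-week plate 2. With 1 to 7 detecting cells on a plate, no level was compared.

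Csf1r, the M-CSF receptor gene, had 2 separate classes of product. Over the 4 plates 7 cells had an early product, at Ct 15.6 to 17.5, and no product lay in the 5.05 cycles from 17.5 to 22.6. The other 24 detected products lay between 22.6 and 24.1, and 5 more, all on 2-week plates, were later than 25. The 2-week plates had 1 early product in 90 cells and 2 in 93, and the 5-week plates 3 in 91 and 1 in 83. All 24 late ones were on the 2-week plates, 10 on plate 1 and 14 on plate 2, and the 5-week plates had 0.

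The lower detection of Csf1r at 5 weeks was therefore a difference in late products. At Ct 25 the plate shares were 12.2% (interval 6.26 to 20.8%) and 17.2% (10.2 to 26.4%) on the 2-week plates and 3.30% (0.685 to 9.33%) and 1.20% (0.0305 to 6.53%) on the 5-week plates, and the difference between the times was -12.46 points (-18.48 to -6.85). For early products the shares were 1.64% (0.339 to 4.72%) at 2 weeks and 2.30% (0.630 to 5.78%) at 5 weeks, a difference of 0.66 points (-2.71 to 4.29) with the plates overlapping. At a limit of Ct 23 the difference was -0.43. Late products in general were not fewer at 5 weeks: over all 96 assays there were 1.01 and 1.66 products later than Ct 22 per cell on the 2-week plates and 1.74 and 1.61 on the 5-week plates. The cells with a late Csf1r product sat in 8 rows and 9 columns of their plates. Their mean reference Ct was 13.21, against 13.49 in the 2-week cells without a detected product. Whether the late product is Csf1r cDNA was not tested.

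**Figure D3:**
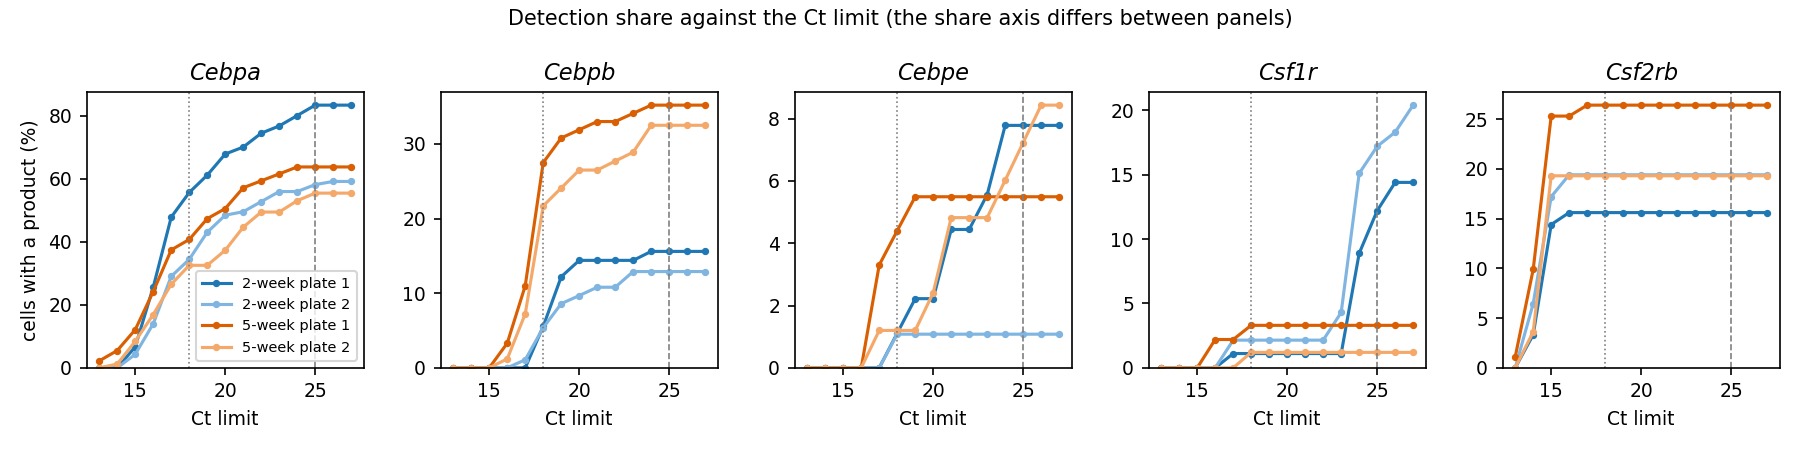
Percent of cells with a product (vertical axis, its scale differing between panels) against the Ct limit that counts as detected, by plate; dotted lines mark Ct 18 and dashed lines Ct 25. The Cebpb curves of the 5-week plates lie above those of the 2-week plates from Ct 16 on, whereas the Csf1r curves part only after Ct 23.

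Csf2rb gave the most uniform product of the set. Its 72 products lay between Ct 12.9 and 16.3, with an SD of 0.59 cycles, against 2.77 cycles for Cebpa, and 0 were late, so a cell either had a clear product or none. It was detected in 14 of 90 cells (15.6%, interval 8.77 to 24.7%) and 18 of 93 (19.4%, 11.9 to 28.9%) at 2 weeks and in 24 of 91 (26.4%, 17.7 to 36.7%) and 16 of 83 (19.3%, 11.4 to 29.4%) at 5 weeks. The intervals of all 4 plates overlapped, and 5-week plate 1 was the highest. The difference of 5.50 points (-2.84 to 13.83) was the same at Ct 18, Ct 23 and without a limit. It was 1.79 points without 5-week plate 1 and 8.89 without 5-week plate 2.

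The level of Csf2rb in detecting cells was narrow as well. It was -0.91 ± 0.65 (SD, n = 14) and -1.03 ± 0.70 (n = 18) on the 2-week plates and -1.28 ± 0.86 (n = 24) and -1.15 ± 0.91 (n = 16) on the 5-week plates. The times differed by -0.25 and single pairs of plates by -0.38 to -0.12, so both 5-week plates were lower, as for 43.8% of assays. The sign of the difference depended on the scale: it was 0.19 where Ct was not centred and 0.11 where Actb and Gapdh alone were the reference, with overlapping plates.

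The other myeloid genes on the panel did not share 1 direction. Of 18 listed, 5 were measured, of which 2 were detected in more cells on both 5-week plates, 1 in fewer, and 2 overlapped, with a median difference of -2.48 points. The assay Sfpi, an older name in use for the gene of the myeloid and lymphoid factor PU.1, had a product in 81.1% (plate 1) and 68.8% (plate 2) of 2-week cells and in 87.9 and 86.7% of 5-week cells. Runx1, a transcription factor that acts upstream of PU.1, was found in 90 and 92.5% against 100 and 97.6%. The repressor Gfi1, which favours granulocytes over monocytes, was found in 13.3 and 14% against 5.49 and 10.8%. The immediate early genes Egr1 and Jun, which act in monocyte differentiation, overlapped. Of 9 erythroid and megakaryocyte genes measured 7 were higher, and of 7 lymphoid genes 2 were higher and 1 was lower. By the same rule 42.7% of all 96 assays were higher and 7.29% lower. The margins of the erythroid and megakaryocyte calls differed. They were wide for vwf (34.4 and 34.4% against 50.5 and 51.8%) and small for Epor (17.8 and 24.7% against 34.1 and 25.3%). Klf1 was near the floor (4.44 and 5.38% against 7.69 and 7.23%), and Zfpm1 near the ceiling (97.8 and 95.7% against 100 and 98.8%).

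Most cells had 1 gene of the set or none. At 2 weeks 30 cells had none, 99 had 1, 42 had 2, 9 had 3 and 3 had 4. At 5 weeks 33 had none, 79 had 1, 50 had 2, 10 had 3, 1 had 4 and 1 had all 5. The mean number per cell was 1.21 ± 0.83 (SD over cells) and 1.25 ± 0.89. Cebpa was the lone gene in 130 cells, Cebpb in 21, Csf2rb in 20, Csf1r in 4 and Cebpe in 3. At least 3 genes were found in 24 cells (6.72%, interval 4.35 to 9.84%), where the plate shares multiplied together give 22.9, and none in 63, where they give 64.

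**Figure D4:**
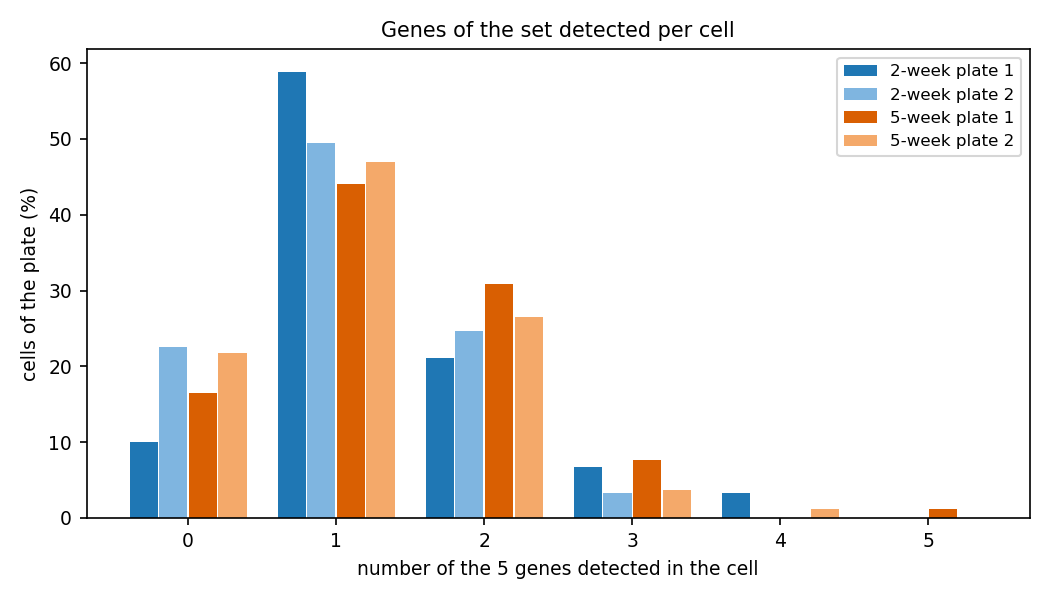
Percent of the cells of each plate (vertical axis) that had 0 to 5 genes of the set (horizontal axis). The class with 1 gene was the largest on every plate, at 58.9 and 49.5% on the 2-week plates and 44 and 47% on the 5-week plates.

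The genes were thus found together about as often as their shares alone give. Cebpa and Cebpb were both detected in 51 cells, where the product of the plate shares, summed over plates, was 54. Cebpa and Csf2rb were together in 43 cells against 46.3, Cebpa and Csf1r in 25 against 20.9, and Cebpb and Csf2rb in 22 against 18.1. The product lay within the exact 95% Poisson interval of the count for 9 of the 10 pairs. This was easily met for pairs with the common Cebpa, since the interval ignores that the cells with each gene bound the count. The exception among the 10 pairs was Cebpe with Csf1r, found together in 5 cells (interval 1.62 to 11.7) against 1.26. Of these 5 cells 3 were on 2-week plate 1. In 4 of these 5 cells the Csf1r product was late. At Ct 18 the excess of 3.74 cells was 0.82, but only 7 products of each gene remained, too few to compare the 2 values.

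**Figure D5:**
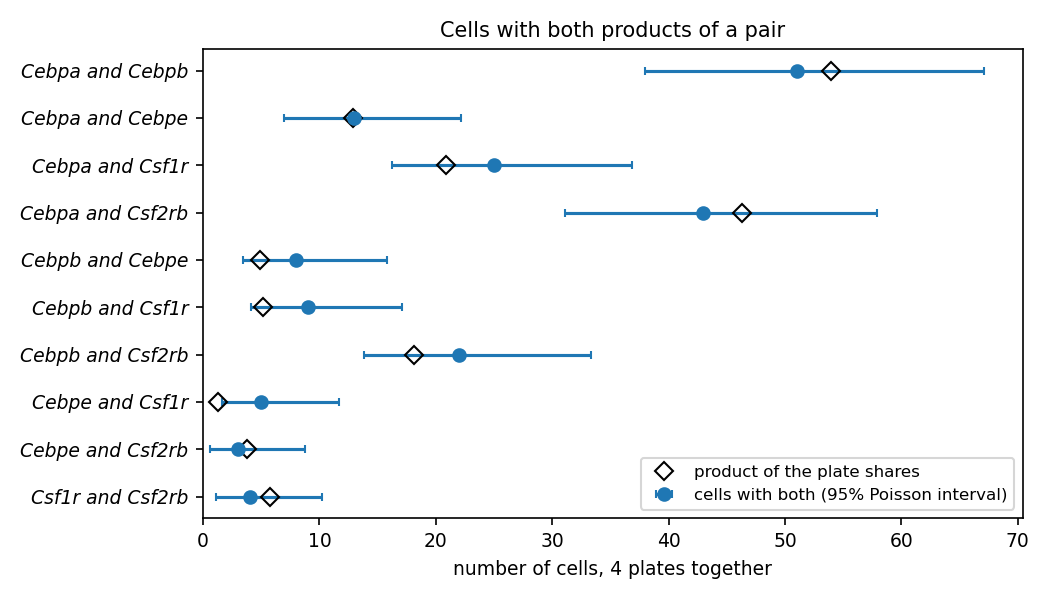
Number of cells with both products for each of the 10 pairs (filled points, with exact 95% Poisson intervals that cover counting error only) and the number that the plate shares multiplied together give (open diamonds), over the 4 plates. The diamonds lie within the intervals except for Cebpe and Csf1r, at 1.26 against 5 cells.

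The cell with all 5 genes was on 5-week plate 1. Its Ct values were 15.9 for Cebpa, 23.3 for Cebpb, 16.7 for Cebpe, 15.6 for Csf1r and 13.1 for Csf2rb. It had 71 detected assays, among them Sfpi, Flt3, vwf and Gata1, and a mean reference Ct of 11.7, so it also held more cDNA than the average cell of its plate (12.8). The 4 cells with 4 genes had 57 to 66 detected assays. Whether a well held more than 1 cell was not tested. Cd48, which is absent from the sorted phenotype, was detected in 0 of these 5 cells. It was seen in only 1.09% of all 2-week and 1.72% of all 5-week cells, so its absence cannot set these 5 apart.

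Csf1r and Gfi1 were not found in the same cell. Gfi1 was detected in 0 of the 31 cells with a Csf1r product, which allows a share of up to 9.68% by a limit of 3 counts, and in 39 of the 326 cells without one (12%, interval 8.65 to 16%). Among the 2-week cells, where most Csf1r products were, it was in 0 of 27 cells with Csf1r (up to 11.1%) and in 25 cells without it (16%, 10.6 to 22.7%). The ranges overlap, and no test was made. Only 7 of the 31 cells had an early Csf1r product, and whether the late product of the other 24 is Csf1r cDNA was not tested. Gfi1 was 1 of 5 other myeloid genes compared in this way, and was singled out after the values were seen. Sfpi was detected in 26 of the 31 cells with Csf1r (83.9%, 66.3 to 94.5%) and in 80.7% of those without (76 to 84.8%). Runx1 was in 96.8 and 94.8%, Egr1 in 48.4 and 39% and Jun in 61.3 and 62.9%. All 7 cells with an early Csf1r product had Sfpi and 5 had Cebpa, while 19 and 20 of the 24 with a late product had them.

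The assays whose Ct varied most like those of the set across cells were only weakly related to them. Rank correlations were computed within each plate over 78 assays that each plate showed in at least 10% of its cells. The cells of a plate may also have shared technical conditions, which was not tested. For Cebpa the highest on the weakest plate were Lyl1 (Spearman's rho 0.11 to 0.25), Myc (0.05 to 0.30) and Gata1 (0.04 to 0.07), and the lowest were Runx1t1 (-0.22 to -0.15) and Nfil3 (-0.17 to -0.02). For Cebpb they were Fgd5 (0.05 to 0.21), Hoxb5 (0.05 to 0.17) and Tgm2 (0.05 to 0.30), with Cdkn2d (-0.04 to -0.03) among the lowest. For Csf2rb they were Ldb1 (0.10 to 0.20), Hhex (0.08 to 0.21) and Hlf (0.08 to 0.17), with Mllt3 (-0.20 to -0.09) and Gata2 (-0.23 to -0.08) lowest. Correlations of this size in sparse data are given as a description. Cebpe and Csf1r were below the detection minimum and were not ranked.

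Cells with and without a gene of the set were also compared for the other 91 assays by detection share, with an assay counted when the sign was the same on all 4 plates. Higher in cells with Cebpa were 8 assays (8.79%) and lower 5 (5.49%), with Cebpb 7 (7.69%) and 4 (4.4%), and with Csf2rb 8 (8.79%) and 4 (4.4%). Of the 5 other myeloid genes measured, 0 were in the Cebpa counts. Jun was lower in cells with Cebpb, on average over plates 55.4% against 64.6%, and Gfi1 was higher in cells with Csf2rb, 14% against 9.98%. Of the erythroid and megakaryocyte genes, Klf1, a factor of the red cell lineage, was detected in 1 of 85 cells with Cebpb and in 21 of 272 without it. On average over plates, vwf was detected in 36% of cells with Csf2rb and 44.4% of those without it, Gfi1b in 71.3 and 66.4%, and Gata1 in 17.6% of cells with Cebpa and 12.2% of those without it. A same sign on 4 plates can also arise from counting error alone. For Klf1 a negative sign was easily met. It was near the floor on every plate (4.44 to 7.69% of cells), and only 14 and 12 cells of the 2-week plates had Cebpb. Where no cell with Cebpb had Klf1, the plate difference is only the Klf1 share of the other cells, so its size says little. The smallest plate difference with Cebpb was -0.58 points for Jun and -5.26 for Klf1. With Csf2rb it was 1.13 for Gfi1, -0.75 for vwf and 1.87 for Gfi1b, and with Cebpa 2.51 for Gata1. These genes were named after their values were seen, and the counts do not set the myeloid list apart from the rest of the panel.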

How the data were processed

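The deposited table holds raw threshold cycles from the authors, 1 for each reaction, and the code 999 where a reaction gave no product. Per the labels' protocols, cDNA of each cell had 22 cycles of multiplex pre-amplification, was diluted 5-fold and ran through 30 cycles with EvaGreen on a microfluidic array. How the Ct and failed reactions were set is not given in the sources used here. The dye binds double-stranded DNA of any sequence. Wells without a cell were not analysed here.

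Of 34272 reactions 13989 had no product and 60 had one later than Ct 25, the limit for detection. All wells passed a minimum of 20% of assays detected. Under 50% were detected in 21 wells, unevenly spread: 5 and 14 on 2-week plates 1 and 2, and 0 and 2 on 5-week plates 1 and 2. Without these wells the share differences were -12.10 points for Cebpa, 19.67 for Cebpb, 1.52 for Cebpe, -13.53 for Csf1r and 3.19 for Csf2rb. Shares have exact Clopper-Pearson intervals and differences Newcombe intervals, and a count of 0 was read as at most 3. Plates were called apart when the lower 5-week share exceeded the higher 2-week share, or the reverse. Levels needed 10 detecting cells on each plate. Covariates entered a logistic fit, from which the mean predicted share at each time was taken. Computations used Python 3.11.15, pandas 2.3.3, numpy 2.4.6, scipy 1.17.1 and statsmodels 0.14.6, and were tested on simulated data.

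The genes, lists, limits and the rule for named genes (all 5 genes, list members, and for each gene the 3 highest and 2 lowest rank correlations) were chosen with earlier results of these data known. A gene that this rule took is left out of the text. The Ct classes of Csf1r and the comparison of cells with and without a gene were added after the values were seen. The plates, 2 per chase time, may be technical repeats.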

Additional observations from a re-analysis of the deposited data

How the results depend on the processing

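No paired analysis was possible because the labels name no animal and each plate held 1 chase time, so no test was made with which a block could go. Of 60 alternative values of the 5 differences in detection share, 55 lay within the interval of the reported one. The difference of Csf1r, -12.46 points, was 0.66 at Ct 18, -0.43 at Ct 23 and -3.17 for products within 10 cycles of the reference Ct. By construction Ct 18 leaves out all its late products and Ct 23 most of them. Leaving out 1 plate at a time gave -23.56 to 1.71 points for Cebpa, 18.32 to 21 for Cebpb, -1.46 to 5.25 for Cebpe, -14.91 to -9.92 for Csf1r and 1.79 to 8.89 for Csf2rb. The sign turned for Cebpa without 2-week plate 1 (1.71) and for Cebpe without 2-week plate 2 (-1.46). Cebpb stayed higher with plates apart under each limit and well filter and without each plate. Genes with plates apart and higher were 2 at Ct 18, of which Cebpe had 1 early product on 5-week plate 2 and on each 2-week plate. They were 1 to 2 without 1 plate. Lower were 0 at Ct 23, 0 at Ct 18 and 1 to 3 without 1 plate, where fewer plates make the rule easier to meet. Level depended on the centring. For Cebpa it was 0.08 without centring, -0.06 with Actb and Gapdh and -1.23 over all cells with undetected reactions at the limit. For Csf2rb the values were 0.19, 0.11 and 0.14, and for Cebpb 0.63, 0.54 and 0.96. Without 1 plate the levels were -0.76 to -0.21 for Cebpa, -0.30 to 0.52 for Cebpb and -0.33 to -0.17 for Csf2rb. For the pairs, the count minus the product of shares stayed within its interval in all 80 alternatives. Settings with fewer cells or products have smaller counts, so this was easily met, and some signs changed. At Ct 18 Cebpa with Csf2rb was 4.07 cells instead of -3.28, and Cebpb with Csf1r -0.20 instead of 3.84. Given the reference Ct, the correlation of Cebpa and Gata1 was -0.04 on its weakest plate. Cebpe and early Csf1r, with 19 and 7 products, set the limit of precision.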
